A study of Mus musculus with 12 samples.

Results

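The skeletal muscle fibre genes are 42 genes that encode the contractile filaments, the scaffold, the calcium handling proteins and the energy enzymes of striated muscle fibres. They were followed in sorted mouse mammary cells. The members were chosen by name, with measured values of these arrays in view: the luminal differences between ovariectomized and control mice, in which Ckm, Pgam2, Rpl3l and Myh4 had been called. All probes whose annotated gene symbol is on the list were taken. The array held 77 probes for 39 of the 42 genes among its 45281 probes, and none for Myh2, Smpx and Cacna1s. A probe was kept for testing when its detection p-value was under 0.05 in at least 2 of the 8 RNA samples. By that filter 36 probes of 26 member genes were kept, of 20995 kept probes in all.

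The samples came from female FVB/NJ mice, either control or ovariectomized (ovx), which takes away the oestrogen and progesterone made by the ovary. Surgery was done at 8 weeks of age, glands were taken 4 weeks later and each ovx pool combined 6 mice, per the labels. The labels do not state the age, pool size or any sham surgery of the 2 control pools separately. In all groups alike, cells bearing CD45 or TER119 (blood cells) or CD31 (endothelium) were first gated out, and the rest were sorted by CD24 and CD29. The luminal fraction was CD29lo CD24+ and the mammary stem cell-enriched fraction (MaSC-enriched, which also holds basal and myoepithelial cells) was CD29hi CD24+, each at a stated purity over 90%. Each of the 4 pools (2 control, 2 ovx) gave both fractions, which makes 4 groups of 2 RNA samples. Neither fraction is sorted on a muscle marker, and muscle is not a labelled tissue of any sample.

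A skeletal muscle fibre contracts when calcium released through the ryanodine receptor binds troponin on the actin filament and lets myosin pull. The calcium pump of the sarcoplasmic reticulum and the buffer parvalbumin then take the calcium away again. Fast fibres and slow fibres use different genes for the same parts, and muscle enzymes such as creatine kinase M, muscle phosphoglycerate mutase and muscle phosphorylase keep the supply of ATP. These genes are textbook markers of differentiated muscle. Many of them are controlled in muscle by MyoD family factors, which bind CANNTG letters called E-boxes, by MEF2 factors and by serum response factor, which binds the CArG box.

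The upstream stretches of 5 members are shown with the matches of 4 motifs, a feature that the choice of members did not use. RefSeq starts on build GRCm38.p6 were found for 30 of the 42 genes (37 starts), and the 250 bases before each start were searched on both strands. Capitals mark the letters CAGCTG, the MEF2 site, the CArG box and the letters TATAAA. Ckm (creatine kinase M, chr7:19410844-19411093, plus strand), Pgam2 (muscle phosphoglycerate mutase, chr11:5803797-5804046, minus strand) and Myh4 (fast myosin heavy chain IIb, chr11:67237562-67237811, plus strand) are 3 of the genes behind the choice. Acta1 (skeletal actin, chr8:123894776-123895025, minus strand) is the classic CArG gene, and Tnnc1 (troponin C of slow and cardiac muscle, chr14:31208062-31208311, plus strand) differed the other way in luminal cells and is shown for contrast.
Ckm: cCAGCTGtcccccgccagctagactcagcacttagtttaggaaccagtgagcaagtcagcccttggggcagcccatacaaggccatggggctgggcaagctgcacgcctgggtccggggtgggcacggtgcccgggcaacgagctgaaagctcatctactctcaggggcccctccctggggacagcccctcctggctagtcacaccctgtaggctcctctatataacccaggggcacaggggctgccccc
Pgam2: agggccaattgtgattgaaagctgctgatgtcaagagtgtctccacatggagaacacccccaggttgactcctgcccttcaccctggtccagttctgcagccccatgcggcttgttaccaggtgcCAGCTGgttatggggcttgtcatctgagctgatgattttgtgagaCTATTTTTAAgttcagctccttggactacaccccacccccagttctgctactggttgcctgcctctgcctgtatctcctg
Myh4: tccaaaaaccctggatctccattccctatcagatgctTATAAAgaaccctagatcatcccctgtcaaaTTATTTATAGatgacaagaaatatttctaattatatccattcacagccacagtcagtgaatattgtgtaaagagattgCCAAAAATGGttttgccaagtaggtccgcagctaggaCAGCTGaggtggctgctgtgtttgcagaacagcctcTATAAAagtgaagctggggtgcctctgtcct
Acta1: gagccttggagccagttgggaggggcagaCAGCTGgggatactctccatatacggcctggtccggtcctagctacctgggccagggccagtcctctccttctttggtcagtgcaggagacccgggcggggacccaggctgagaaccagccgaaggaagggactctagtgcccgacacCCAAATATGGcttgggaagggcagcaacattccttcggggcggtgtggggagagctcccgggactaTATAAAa
Tnnc1: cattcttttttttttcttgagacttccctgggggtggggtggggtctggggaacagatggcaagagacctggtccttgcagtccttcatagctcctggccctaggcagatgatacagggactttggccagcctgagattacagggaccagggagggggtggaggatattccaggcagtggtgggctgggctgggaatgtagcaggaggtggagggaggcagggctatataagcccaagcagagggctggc
Ckm holds CAGCTG with its first base at -249 from the start site. In Pgam2 the CAGCTG match began at -125 and the MEF2 match at -80. Myh4 holds all 4 kinds, with MEF2 at -182, CArG at -104, CAGCTG at -67 and TATAAA at -213, -179 and -31, of which the match at -179 lies inside the MEF2 match. Acta1 holds CAGCTG at -221, CArG at -73 and TATAAA at -7. None of the 4 motifs was found in the Tnnc1 window, which says only that these letters are not in it. The windows of Tnnc2, Actn2, Mybpc2, Ryr1 and Eno3 also held none of the 4, and these genes were higher in ovx luminal cells. Absence of the motifs therefore does not set Tnnc1 apart. Over the members, CAGCTG was found at 17 of 37 starts (15 of 30 genes), against 13% of all 32851 RefSeq starts of the same window. A MEF2 match was found at 7 of the 37 starts against 2.92% of all starts, a CArG match at 5 against 1.47%, and TATAAA at 7 against 12.4%. These are matches of letters and were not tested as binding sites.

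The number of RNA samples limits the precision. The 8 samples were read on 12 arrays of 2 beadchips, of which 4 arrays repeat an RNA already read. Between 17705 and 18853 probes were detected in 7 samples, and 12994 in control MaSC-enriched replicate 1, whose detection floor of 7.29 (log2) lay above the floors of 5.74 to 5.93 of the others. That sample stands apart, so the medians and counts that rest on it are also given without it. The fractions differed in markers of their labels, with some of each in the other fraction. Krt5 and Trp63, basal epithelial genes, read 11.9 or more in all 4 MaSC-enriched samples and at most 6.58 in the luminal ones, and Cited1, a luminal gene, read 11.8 or more in luminal samples and at most 9.30 in the MaSC-enriched ones. Krt8, a luminal keratin, read 13.8 to 14.7 in MaSC-enriched against 14.6 to 15.1 in luminal samples, and the basal genes Krt14 and Acta2 reached 12.9 and 12.4 in luminal samples. Of the cells gated out, Ptprc, which encodes CD45, was detected in no sample, while the blood cell gene Lyz2 was detected in all 8 and Cd3e in 5. The endothelial genes Pecam1, Cdh5 and Tek were also detected in all 8, while the endothelial gene Kdr was detected in no sample.

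More of the muscle fibre probes were detected in ovx luminal cells than in any other group. Of the 77 probes, 34 and 39 were detected in ovx luminal replicates 1 and 2, against 19 and 18 in control luminal cells. MaSC-enriched cells had 11 and 17 in control and 25 and 22 in ovx samples. The share of all array probes detected did not move in the same way: it was 40.1% and 41.4% in control luminal, 39.3% and 41.6% in ovx luminal, 28.7% and 39.3% in control MaSC-enriched and 39.1% and 40.3% in ovx MaSC-enriched cells. By gene, 25 and 29 of the 39 members with a probe were detected in ovx luminal cells and 16 and 14 in control luminal cells. Because these are bulk samples of sorted cells, more cells of a type and more RNA per cell cannot be told apart.

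**Figure D1:**
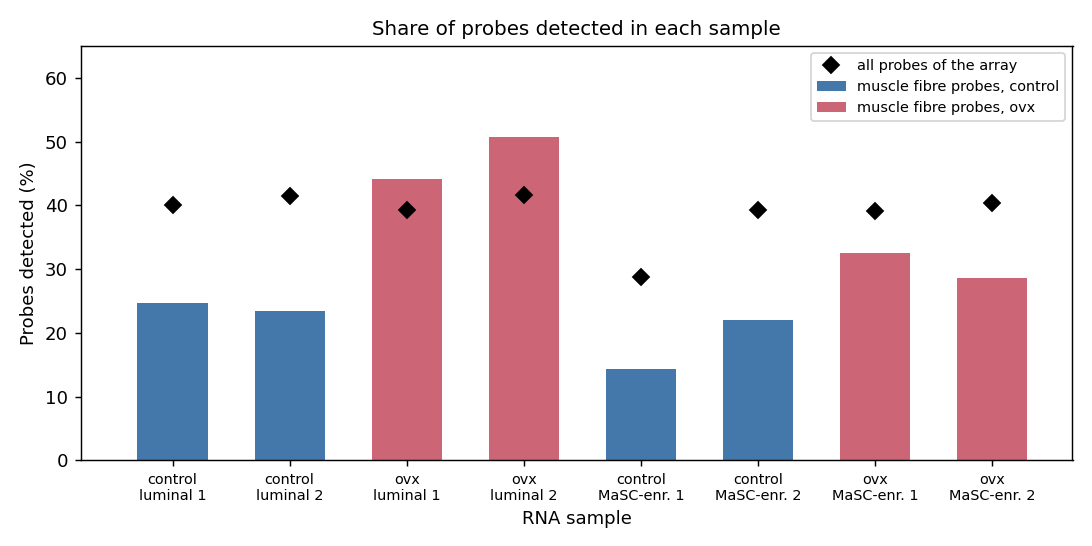
Percent of the 77 muscle fibre probes (bars) and of all 45281 probes (diamonds) with a detection p-value under 0.05 in each of the 8 RNA samples. The ovx luminal bars, at 44.2% and 50.6%, are the only bars above the diamonds of their own sample.

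Values below are log2 levels after normalization, given as replicate 1 and replicate 2 of a group, and each gene is read from its kept probe with the highest mean. Levels of different probes are not compared with each other, since probes differ in response. Luminal differences are a description with no test, because calls of that comparison were known when the members were chosen. In that comparison, 23 of the 26 genes had both ovx samples above both control samples, 1 gene had both below and 2 overlapped. Such a separation upward held for 26.9% of all kept probes and downward for 24.7%. The median difference over the 26 genes was 2.75, but a gene kept through its high group had to differ, and over all 77 member probes, dim ones included, the median was 0.24 against 0.0026 over all probes of the array. At an adjusted p under 0.05 in either direction, 5 of the 36 member probes were called, against 0.157% of all kept probes, and these calls include those that led to the choice. Over other settings that count ran from 0 to 14.

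**Figure D2:**
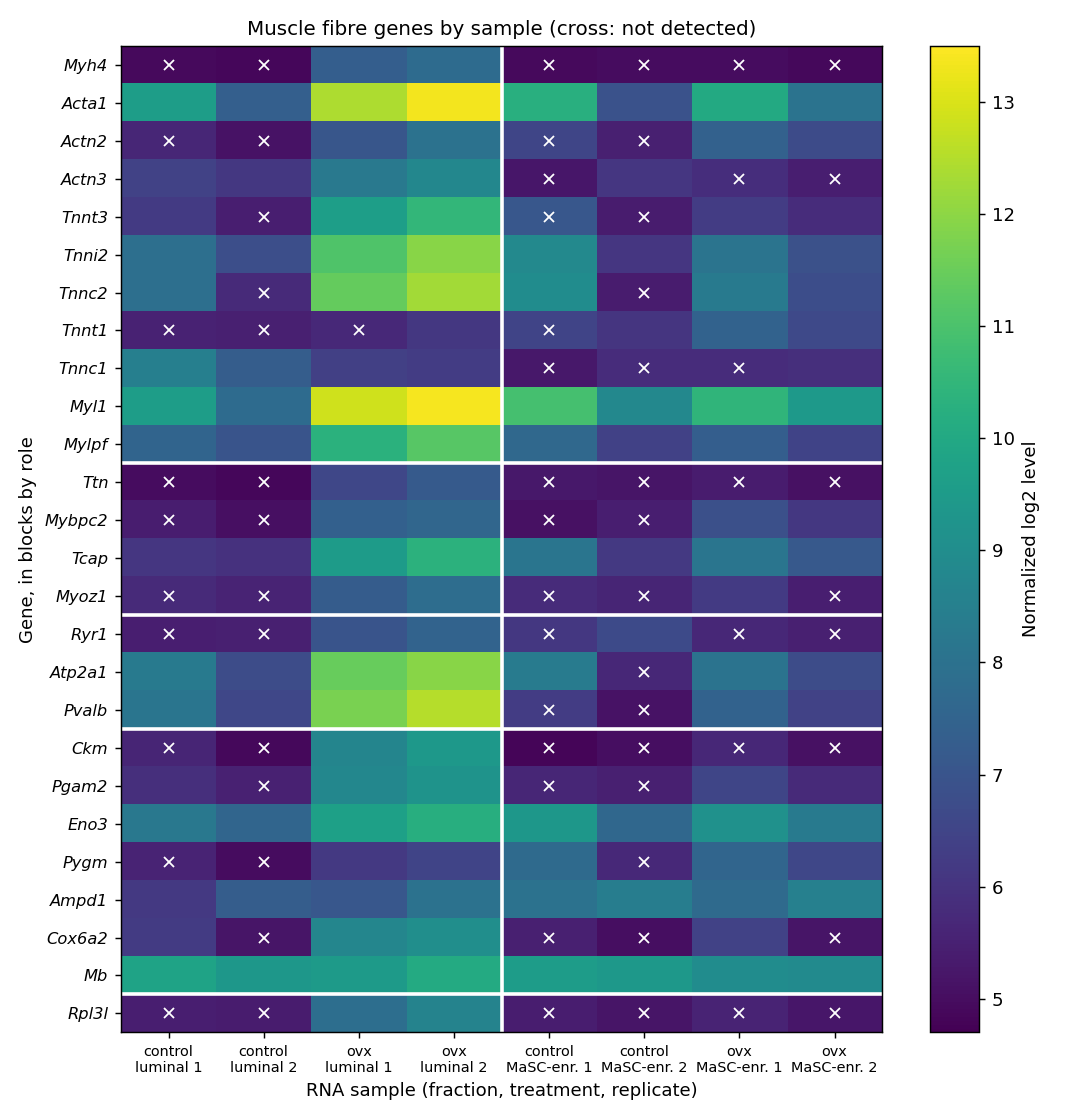
Normalized log2 level (colour) of the 26 member genes with a kept probe (rows, in blocks by role: motor and thin filament, scaffold and Z disc, calcium, energy and oxygen, ribosomal protein) in each of the 8 RNA samples (columns); a cross marks a sample in which the probe was not detected. Colours are to be compared along a row, where the 2 ovx luminal columns stand above the 2 control luminal columns in 23 of 26 rows.

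The motor and thin filament genes numbered 17, of which 16 had a probe and 11 a kept probe. Myh4 encodes the myosin heavy chain of the fastest fibres. Its levels were 4.93 and 4.86 in control luminal, 7.33 and 7.77 in ovx luminal, 4.94 and 4.98 in control MaSC-enriched and 5.01 and 4.88 in ovx MaSC-enriched cells. It was detected in the ovx luminal samples alone, where its mean of 7.55 ± 0.32 (SD, n = 2) was at least 3.44-fold higher than in control luminal cells. Such a bound sets each control array at its detection floor, since a probe below it has no measured level.

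Acta1, the actin of the skeletal muscle thin filament, was detected in all 8 samples. It read 9.60 and 7.37 in control luminal, 12.42 and 13.33 in ovx luminal, 10.25 and 6.93 in control MaSC-enriched and 10.06 and 8.04 in ovx MaSC-enriched cells. The control samples of each fraction lay over 2 log2 units apart, and both ovx luminal samples lay above all 6 others. Myl1, an alkali light chain of fast myosin, read 9.61 and 7.78 in control luminal and 12.85 and 13.39 in ovx luminal cells. In MaSC-enriched cells Myl1 read 10.89 and 8.81 in control and 10.46 and 9.43 in ovx samples, so these groups overlapped. Mylpf, the phosphorylatable light chain of fast fibres, had 7.52 and 6.98 in control luminal, 10.30 and 11.21 in ovx luminal, 7.68 and 6.41 in control MaSC-enriched and 7.34 and 6.48 in ovx MaSC-enriched cells. The luminal differences of the 3 genes were 4.39, 4.42 and 3.51.

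Troponin has a calcium-binding subunit, an inhibitory subunit and a subunit that binds tropomyosin, each with a fast and a slow gene. Tnnc2, the fast calcium-binding subunit, had a luminal difference of 5.02, which was 3.92 without control replicate 2, where its probe was not detected. Its levels were 7.93 and 5.73 in control luminal, 11.42 and 12.28 in ovx luminal, 8.97 and 5.36 in control MaSC-enriched and 8.28 and 6.78 in ovx MaSC-enriched cells. Tnni2, the fast inhibitory subunit, read 7.91 and 6.82 in control luminal, 11.08 and 11.92 in ovx luminal, 8.86 and 6.08 in control MaSC-enriched and 8.08 and 6.87 in ovx MaSC-enriched cells. The fast tropomyosin-binding subunit is Tnnt3, with 6.19 and 5.44 in control luminal, 9.63 and 10.52 in ovx luminal, 7.08 and 5.36 in control MaSC-enriched and 6.25 and 5.83 in ovx MaSC-enriched cells. All 3 fast subunits were highest in the ovx luminal pair, with luminal differences of 5.02, 4.14 and 4.26.

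The slow troponins behaved otherwise. Tnnt1, the slow tropomyosin-binding subunit, read 5.55 and 5.48 in control luminal and 5.71 and 6.11 in ovx luminal cells, a difference of 0.39. Its MaSC-enriched levels were 6.52 and 6.06 in control and 7.48 and 6.63 in ovx samples, above the ovx luminal values in both ovx pools. Tnnc1, the calcium-binding subunit of slow and cardiac muscle, was the only one of the 26 genes lower in both ovx luminal samples than in both controls. It read 8.48 and 7.29 in control luminal, 6.37 and 6.26 in ovx luminal, 5.28 and 5.83 in control MaSC-enriched and 5.83 and 5.90 in ovx MaSC-enriched cells, and its luminal difference was -1.57. The probe of Tnni1, the slow inhibitory subunit, was not kept, and neither were those of the slow light chain genes Myl2 and Myl3.

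The alpha-actinins tie actin filaments to the Z disc, and Actn3 is the form of fast fibres. Its brightest kept probe read 6.42 and 6.12 in control luminal, 8.25 and 8.79 in ovx luminal, 5.22 and 6.10 in control MaSC-enriched and 5.86 and 5.44 in ovx MaSC-enriched cells. A second kept probe of Actn3 read 5.36 and 4.97 in control luminal and 9.11 and 9.56 in ovx luminal cells, at least 11.9-fold higher, and is the fifth of the called member probes. The 2 probes agree in direction and differ in size. Actn2, the alpha-actinin of all skeletal fibre types and of the heart, read 5.66 and 5.13 in control luminal, 7.07 and 8.02 in ovx luminal, 6.52 and 5.46 in control MaSC-enriched and 7.42 and 6.71 in ovx MaSC-enriched cells. Here the ovx samples of both fractions lay above the control samples of the same fraction. Of the other motor genes, Myh1 and Myh8, which encode the fast IIx and the perinatal myosin heavy chains, had no kept probe.

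The scaffold and Z disc genes numbered 9, with a probe for 8 and a kept probe for 4. Tcap, or telethonin, caps titin at the Z disc and was detected in all 8 samples. It read 6.09 and 5.95 in control luminal, 9.53 and 10.34 in ovx luminal, 8.12 and 6.16 in control MaSC-enriched and 8.13 and 7.16 in ovx MaSC-enriched cells. Mybpc2, the fast form of myosin-binding protein C, read 5.39 and 5.05 in control luminal, 7.41 and 7.60 in ovx luminal, 5.11 and 5.45 in control MaSC-enriched and 6.85 and 6.12 in ovx MaSC-enriched cells. It was detected in all 4 ovx samples and in none of the 4 controls. Both ovx MaSC-enriched levels lay under the detection floor of 7.29 of control MaSC-enriched replicate 1. Its absence from that control therefore says nothing about a difference. The ovx luminal mean of Mybpc2 lay at least 3.34-fold above the control luminal floor. Myoz1, a calcineurin-binding Z disc protein of fast fibres, read 5.74 and 5.56 in control luminal, 7.25 and 7.84 in ovx luminal, 5.79 and 5.60 in control MaSC-enriched and 6.18 and 5.45 in ovx MaSC-enriched cells.

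Ttn encodes titin, the giant spring protein of the sarcomere, and had 12 probes of which 1 was kept. That probe read 4.99 and 4.85 in control luminal, 6.58 and 7.19 in ovx luminal, 5.25 and 5.20 in control MaSC-enriched and 5.38 and 5.08 in ovx MaSC-enriched cells. It was detected in the ovx luminal samples alone, at a level at least 2.17-fold above control luminal cells. Neb (nebulin), Ldb3, Myot and Mybpc1, which encode further proteins of the thick and thin filaments and the Z disc, had no kept probe.

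The calcium handling genes numbered 8, with a probe for 7 and a kept probe for 3. Atp2a1 is the fast-fibre calcium pump that refills the sarcoplasmic reticulum. It read 8.28 and 6.76 in control luminal, 11.47 and 11.92 in ovx luminal, 8.36 and 5.68 in control MaSC-enriched and 8.05 and 6.76 in ovx MaSC-enriched cells. Pvalb, the calcium buffer of fast fibres, had 8.13 and 6.56 in control luminal, 11.73 and 12.53 in ovx luminal, 6.25 and 5.12 in control MaSC-enriched and 7.47 and 6.42 in ovx MaSC-enriched cells. The luminal differences were 4.17 for Atp2a1 and 4.79, or 27.6-fold, for Pvalb.

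Ryr1, the calcium release channel, read 5.42 and 5.49 in control luminal, 6.98 and 7.49 in ovx luminal, 6.11 and 6.68 in control MaSC-enriched and 5.66 and 5.49 in ovx MaSC-enriched cells. In luminal cells the ovx mean was at least 2.76-fold higher, while in MaSC-enriched cells both ovx samples lay below both controls. Of the MaSC-enriched samples only control replicate 2 was detected. The value of control replicate 1 lay under its detection floor of 7.29. Casq1, Cacng1, Sln and Trdn, which store calcium or regulate its channels and pump, had no kept probe.

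All 7 energy and oxygen genes had a kept probe. Ckm, which regenerates ATP from phosphocreatine, read 5.63 and 4.88 in control luminal, 8.70 and 9.38 in ovx luminal, 4.82 and 5.03 in control MaSC-enriched and 5.67 and 5.09 in ovx MaSC-enriched cells. It was detected in the ovx luminal samples alone by the rule for samples, and on 1 of the 3 control luminal arrays. Its fitted luminal difference of 3.79 therefore rests on values near the floor on the control side. Pgam2, the muscle form of a glycolytic mutase, read 5.88 and 5.49 in control luminal, 8.79 and 9.22 in ovx luminal, 5.66 and 5.49 in control MaSC-enriched and 6.55 and 5.76 in ovx MaSC-enriched cells. Eno3, the muscle enolase, read 8.21 and 7.59 in control luminal, 9.70 and 10.20 in ovx luminal, 9.34 and 7.63 in control MaSC-enriched and 9.14 and 8.31 in ovx MaSC-enriched cells. The ovx luminal pair was again above every other sample for these 3 enzymes.

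Cox6a2 encodes the heart and muscle form of a cytochrome oxidase subunit. It read 6.22 and 5.19 in control luminal, 8.74 and 9.06 in ovx luminal, 5.49 and 5.01 in control MaSC-enriched and 6.44 and 5.20 in ovx MaSC-enriched cells. Pygm, the muscle glycogen phosphorylase, read 5.57 and 4.98 in control luminal, 6.17 and 6.52 in ovx luminal, 7.74 and 5.71 in control MaSC-enriched and 7.58 and 6.58 in ovx MaSC-enriched cells. Pygm read higher in MaSC-enriched than in luminal cells of the same pool in all 4 pools, with luminal minus MaSC-enriched differences from -2.17 to -0.064.

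Ampd1, the muscle AMP deaminase, and Mb, the oxygen store myoglobin, were the 2 genes whose luminal groups overlapped. Ampd1 read 6.17 and 7.29 in control luminal, 7.09 and 8.03 in ovx luminal, 8.01 and 8.43 in control MaSC-enriched and 7.73 and 8.52 in ovx MaSC-enriched cells. Mb read 9.80 and 9.37 in control luminal, 9.48 and 10.08 in ovx luminal, 9.55 and 9.39 in control MaSC-enriched and 8.97 and 8.91 in ovx MaSC-enriched cells. Both were detected in every sample, and their luminal differences were 0.83 and 0.19. The Mb difference was -0.36 between the luminal samples of beadchip 1, and it was below 0 without control replicate 2 or without ovx replicate 2.

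Rpl3l is a paralogue of ribosomal protein L3 found in heart and skeletal muscle. It read 5.46 and 5.38 in control luminal, 7.89 and 8.65 in ovx luminal, 5.40 and 5.20 in control MaSC-enriched and 5.59 and 5.24 in ovx MaSC-enriched cells. It was detected in the ovx luminal samples alone, at a mean at least 5.65-fold above control luminal cells. Rpl3, the general form of the protein, differed by 0.0043 between ovx and control luminal cells.

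The 13 member genes without a kept probe, together with dim extra probes of kept genes, made up 41 probes. Of these, 35 were detected in no sample and 6 in a single sample, and their levels lay between 4.71 and 7.13. The highest, 7.13 and 6.49, were Ldb3 probes in control luminal replicate 2, above its floor of 5.75 and detected in no other sample. Myh1 at 6.19, Sln at 6.09 and Tnni1 at 5.75 were detected in ovx luminal replicate 2 alone. Ryr1, at 5.76 by a probe not kept, was detected in control luminal replicate 2 alone. A detection in 1 sample gives no direction between groups, and the undetected values give none either.

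The one comparison of ovx and control that the choice of members did not use is that in MaSC-enriched cells. There the adjusted limma test called 0 of the 36 member probes, against 0.0762% of all kept probes, and the smallest adjusted p was 0.373. With so small a share over all kept probes, 0 calls among 36 tell little about the members. At an unadjusted p under 0.05 there was 1 member probe higher and 1 lower, where 5.8% and 2.83% of all kept probes passed. The median over all 77 member probes was 0.033, against -0.0012 over all probes of the array. Of the 26 genes, 6 had both ovx samples above both controls and 2 had both below, against 19.8% and 12.5% of all kept probes, and 18 overlapped. The kept probes of Myh4, Ttn, Ckm and Rpl3l, and a further kept probe each of Actn3 and Myl1, were detected on no MaSC-enriched array. They passed the filter through ovx luminal cells, so they are counted here but give no direction.

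The probe with the smallest unadjusted p was that of Mybpc2, whose MaSC-enriched difference was 1.21 with a standard error of 0.36 (limma, unadjusted p = 0.0112, adjusted p = 0.373). The lower one was Ryr1, with a difference of -0.82 and a standard error of 0.34 (limma, unadjusted p = 0.0444, adjusted p = 0.557). Of the MaSC-enriched samples it was detected in control replicate 2 alone. The other 5 genes with both ovx samples above both controls were Actn2 at 1.07, Tnnt1 at 0.77, Pvalb at 1.26, Ckm at 0.45 and Pgam2 at 0.58. Ckm was detected on none of the MaSC-enriched arrays, so its value gives no direction. Mb, with a difference of -0.53, was the other gene with both below. None of these differences passed the adjusted test, and the 18 overlapping genes lay between -0.18 and 0.57. Genes with large luminal differences read Tnnc2 0.37, Myl1 0.090, Tnni2 0.0088 and Tnnt3 -0.18 in MaSC-enriched cells. The difference between the fractions was not tested.

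The standard errors limit that reading. For Tnnc2 and Acta1 the standard error of the fit was 1.23, since their control MaSC-enriched samples lay over 3 log2 units apart. Without control replicate 1, the sample with the high detection floor, the median MaSC-enriched difference over the 26 genes was 0.74 in place of 0.27. It was -0.0064 without control replicate 2, -0.14 without ovx replicate 1 and 0.64 without ovx replicate 2, so its direction depends on single samples. Each of these fits called 0 member probes.

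The counts also depended on control replicate 1. Without it, a setting added after the data were seen, both ovx samples lay above the remaining control for 18 of the 26 genes and below it for 3, against 38.4% and 36.7% of all kept probes. At an unadjusted p under 0.05, 5 member genes were then higher (Actn2, Mybpc2, Tcap, Pvalb and Pygm) and Ryr1 was lower, against 8.44% and 7.53% of all kept probes. The Mybpc2 difference was 1.04 (limma, adjusted p = 0.297) and that of Ryr1 -1.11 (limma, adjusted p = 0.226) without that sample.

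**Figure D3:**
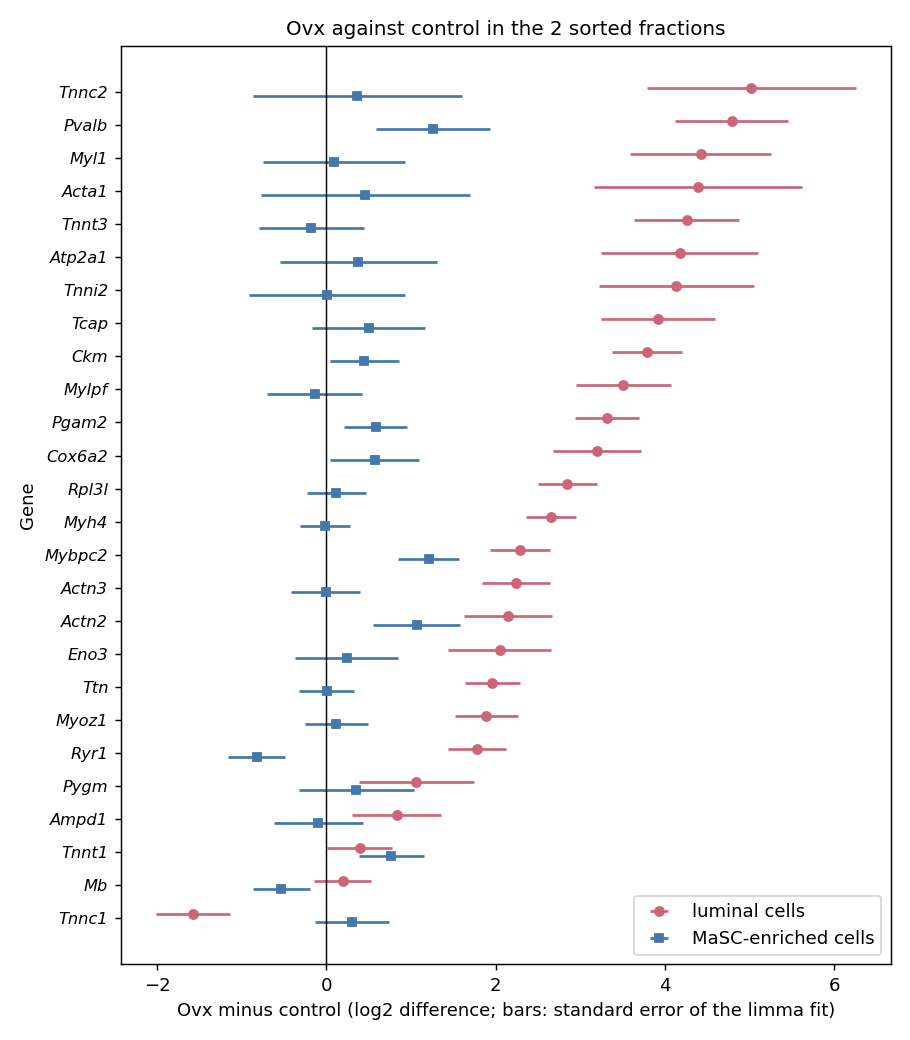
Ovx minus control log2 difference of the 26 member genes in luminal cells (circles) and MaSC-enriched cells (squares), with the standard error of the limma fit as bars and genes ordered by the luminal value. Luminal values run from -1.57 for Tnnc1 to 5.02 for Tnnc2, and MaSC-enriched values from -0.82 for Ryr1 to 1.26 for Pvalb.

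Each pool gave both fractions, so luminal and MaSC-enriched cells of the same mice can be set side by side, as a description with no test. In the 2 control pools the median luminal minus MaSC-enriched difference over the 26 genes was -0.21 and -0.028, with 9 and 12 genes higher in luminal cells. In the 2 ovx pools it was 2.27 and 3.26, with 22 and 23 genes higher in luminal cells. The genes kept through ovx luminal cells alone had to be higher there. Over all 77 member probes the medians were -0.0071 and -0.016 in the control pools and 0.18 and 0.33 in the ovx pools, against 0.019, 0.011, 0.032 and 0.0017 over all probes of the array. The first control pool holds the MaSC-enriched sample that stands apart. Pvalb was higher in the luminal cells of every pool, by 1.88 and 1.43 in the control pools and 4.26 and 6.11 in the ovx pools. Tnnc1 went the other way between treatments, with 3.20 and 1.46 in control and 0.54 and 0.37 in ovx pools.

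**Figure D4:**
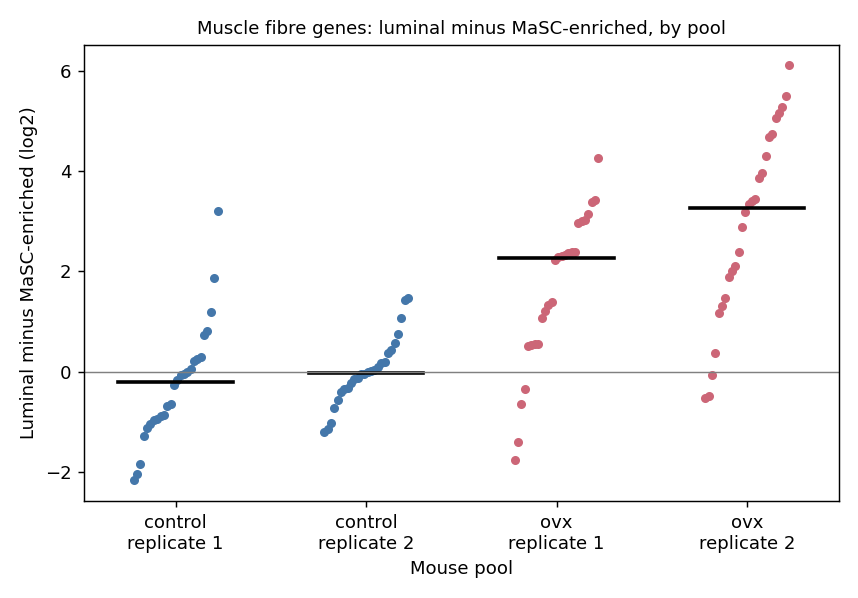
Luminal minus MaSC-enriched log2 difference of each of the 26 member genes (points) within each of the 4 mouse pools, with the median over genes as a black bar. Over these 26 genes, which the filter kept, the medians are -0.21 and -0.028 in the control pools and 2.27 and 3.26 in the ovx pools; over all 77 member probes the ovx medians are 0.18 and 0.33.

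Taken over the groups, MaSC-enriched minus luminal differences in ovx mice were below 0 for 23 of the 26 genes, and for 22 of them both MaSC-enriched samples lay below both luminal samples, against 36.9% of all kept probes. Both MaSC-enriched samples lay above for 2 genes, against 27% of all kept probes. Since genes kept through ovx luminal cells alone had to separate, nothing is read from these counts. Over all 77 member probes the median was -0.22, against -0.016 over all probes of the array. The values ran from -5.19 for Pvalb to 1.15 for Tnnt1. In control mice 3 genes separated downward and 7 upward, against 30.1% and 21.4% of all kept probes, and 16 overlapped. Without control MaSC-enriched replicate 1 these counts were 12 downward and 8 upward, against 42.5% and 33.4% of all kept probes. The genes that separated most in control mice were Tnnc1 at -2.33, Pvalb at -1.66, Ampd1 at 1.50 and Pygm at 1.45.

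By normalized level, most member genes moved in the same direction between the replicates of a group. Outside ovx luminal cells the counts include probes detected in neither replicate, such as those of Myh4, Ttn and Rpl3l. The values of such probes give no direction. In ovx luminal cells replicate 2 was above replicate 1 for 25 of the 26 genes, with a median of 0.59, while 48.0% of all kept probes were higher in replicate 2. In control luminal cells replicate 2 was above replicate 1 for 2 of the 26 (median -0.53), against 50.2% of all kept probes. In ovx MaSC-enriched cells it was also above for 2 of the 26 (median -0.76), against 50.8%. Control MaSC-enriched cells had 7 of 26 higher in replicate 2, with a median of -0.47, against 55.7% of all kept probes. The second array of the same ovx luminal RNA differed from the first by a median of 0.077 over the 26 genes and by at most 0.40, so the gap between the replicates is larger than that between arrays of the same RNA. On beadchip 2, which held both luminal samples of each treatment, the median luminal ovx minus control difference was 2.87. On beadchip 1, with 1 luminal sample of each treatment, it was 2.17.

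A further list of 72 skeletal muscle fibre genes outside the 42 had a probe for 63 and a kept probe for 31. In luminal cells 22 of the 31 had both ovx samples above both controls and 1 had both below, beside the 26.9% and 24.7% given above. Genes kept through ovx luminal cells alone, such as Xirp2, had to separate, and over all 110 probes of the list the median was 0.15 against 0.0026 over all probes of the array. Read in order of mean level, the 6 brightest were Tpm2, Chrnb1, Pfkm, Fbxo32, Tmod4 and Asb2. Tpm2, a tropomyosin that smooth muscle and myoepithelial cells also use, read 8.52 and 8.62 in control luminal, 9.55 and 9.52 in ovx luminal, 14.08 and 13.88 in control MaSC-enriched and 14.59 and 14.76 in ovx MaSC-enriched cells. Tmod4, the tropomodulin of skeletal muscle, read 8.31 and 7.58 in control luminal and 9.62 and 9.49 in ovx luminal cells. Chrnb1, a subunit of the muscle acetylcholine receptor, differed by 1.32 in luminal cells, Asb2 by 1.19, Fbxo32 by 0.20 and Pfkm, the muscle phosphofructokinase, by 0.08.

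Named after their values were seen, Xirp2, Cmya5, Klhl41 and Mylk2 had the largest luminal differences of this list, at 2.69, 2.66, 2.08 and 2.03. Xirp2, an actin-binding protein of the muscle fibre, read 5.16 and 5.15 in control luminal and 7.38 and 8.30 in ovx luminal cells, and was detected in no MaSC-enriched sample. Klhl41, Mylk2 and Nrap were likewise detected in the ovx luminal samples alone. The gene with both ovx samples below, also named after its values were seen, was Fabp3, a fatty acid-binding protein of heart and muscle that mammary cells also use, at -4.62. In MaSC-enriched cells the limma test called 0 of the 31 genes, with 8 higher and 1 lower at an unadjusted p under 0.05, where 5.8% and 2.83% of all kept probes passed. Without control replicate 1 the median MaSC-enriched difference over the 31 genes was 0.58 in place of 0.35. Several genes of this list, Tpm2 among them, are also expressed by smooth muscle and myoepithelial cells.

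**Figure D5:**
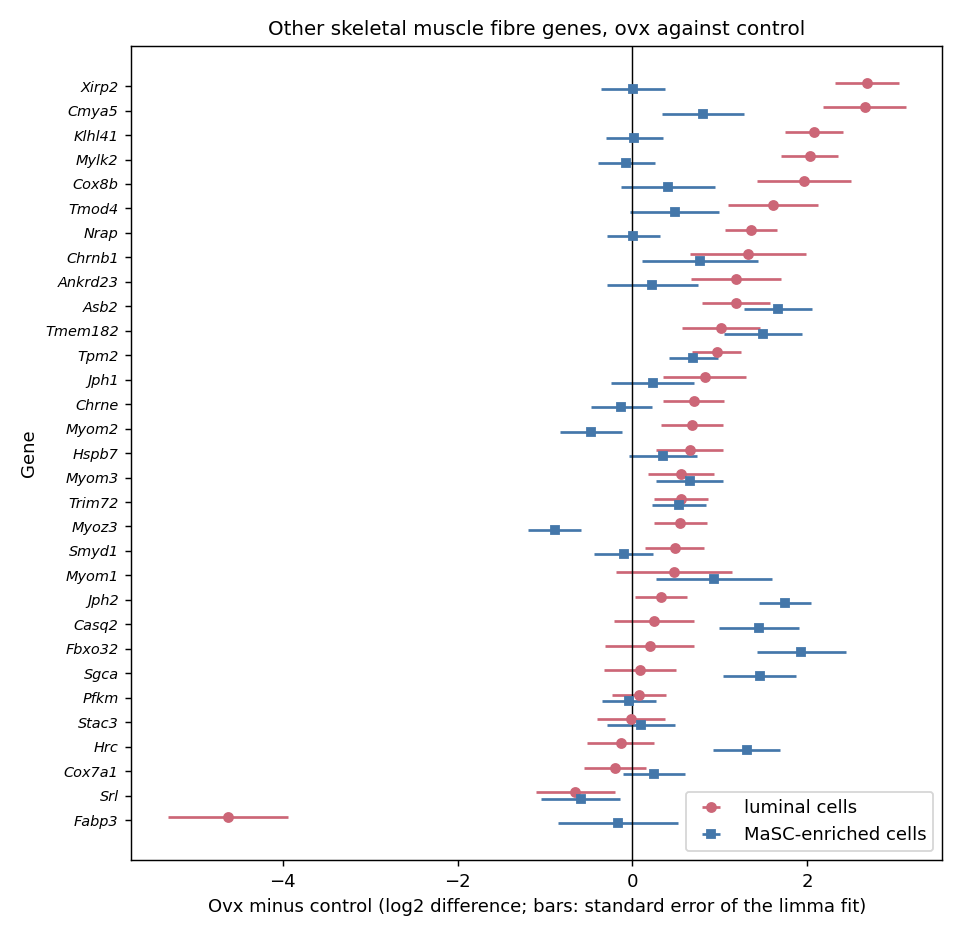
Ovx minus control log2 difference of the 31 genes of the further muscle fibre list with a kept probe, in luminal cells (circles) and MaSC-enriched cells (squares), with the standard error of the limma fit as bars. Luminal values run from -4.62 for Fabp3 to 2.69 for Xirp2, with Xirp2, Klhl41, Mylk2 and Nrap near 0 in MaSC-enriched cells.

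Genes of muscle stem cells and of muscle formation were in part not detected. The satellite cell and myogenic genes Pax7, Pax3, Myf5, Myod1, Myf6 and Cdh15 were detected in no sample, with levels between 4.74 and 5.60. Of the 12 genes on that list 5 had a kept probe: Mef2c, Msc, Myog, Megf10 and Chodl. In luminal cells 1 separated upward and 2 downward, where 26.9% and 24.7% of all kept probes did. Mef2c was detected in 8 samples, at 6.63 and 6.70 in control luminal and 7.27 and 7.76 in ovx luminal cells. Msc was detected in 7, at 9.30 and 8.67 in control luminal and 7.80 and 7.77 in ovx luminal cells. Megf10 and Chodl were detected in no luminal sample. Myog read 5.56 and 5.64 in control luminal and 5.53 and 5.87 in ovx luminal cells. Of 11 cardiac genes, Myh6, Myl7, Nppa, Nppb, Mybpc3 and Hcn4 were detected in no sample, and Myh7, the slow and cardiac myosin heavy chain, in none either. By the probe detected most often, the cardiac gene Gja5 was detected in 6 samples, and Pln, Ryr2 and Tnni3 in 2 each. The general counterparts of the muscle forms, such as Rpl3 and Actb, had a kept probe for 13 genes, with a luminal median of 0.0043. Of these, 4 separated upward and 4 downward in luminal cells, against 26.9% and 24.7% of all kept probes.

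Markers of other cell types moved with the luminal comparison to differing degrees. Of 9 endothelial genes, 8 separated upward, against 26.9% of all kept probes, and 0 had an unadjusted p under 0.05. Their median was 0.58, and the mean level over the 17 probes of the list was 7.13 and 7.24 in control luminal and 7.43 and 7.69 in ovx luminal cells. The fibroblast list had a median of -0.75, and the mean over its 18 probes was 7.68 and 8.51 in control luminal and 6.39 and 7.62 in ovx luminal cells. Des, the intermediate filament gene of all muscle types, named after its values were seen, differed by 2.07. Its list of 11 smooth muscle and myoepithelial genes had 2 separated upward and 4 downward, against 26.9% and 24.7% of all kept probes, with a median of -0.089. The red cell gene Alas2 read 6.35 and 6.27 in control and 8.22 and 8.27 in ovx luminal cells. The globin gene Hba-a1 read 11.3 and 11.8 in control and 10.2 and 10.6 in ovx luminal cells, and Hbb-b2 differed by 0.20. Car3, an adipocyte and muscle gene, differed by 2.19. Adipoq, Plin1, Cidec and Lep, defining adipocyte genes, were detected in no luminal sample. Pnpla2, Lipe and Cidea of the same list were detected in every luminal sample. Of the 14 adipocyte probes, 3 and 3 were detected in control luminal and 5 and 5 in ovx luminal cells. The part of these other cells in the muscle fibre result was not tested.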

How the data were processed

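RNA (up to 250 ng, per the labels) was hybridised to Illumina BeadChips. The deposited non-normalized table gives, per its file headers, an average bead intensity per probe and array, with a detection p-value, for 45281 probes on 12 arrays. The authors' deposited series table, used as an alternative, holds normalized values on a log2 scale. BeadStudio and limma are named in the submitters' processing notes; other steps are not given in the sources used here.

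From the intensities, limma 3.58.1 (R 4.3.3) was used for background correction by neqc with negative controls inferred from detection p, an offset of 16 and quantile normalization over the 12 arrays, on a log2 scale, which understates changes of dim probes. Second arrays of an RNA (4 RNAs) were averaged, leaving 8 samples. Probes with a mean detection p under 0.05 in at least 2 samples were kept (20995, 46.4%). A mean per group was fitted (4 residual and 3.22 prior degrees of freedom), with two-sided moderated tests and Benjamini-Hochberg adjustment across every kept probe, at 0.05. An exact test of 2 against 2 samples cannot go below 0.333. The fit was tested on simulated data. Folds written "at least" raise undetected arrays to their detection floor. The number of samples sets the precision, and p-values measure the spread between pools.

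Probe genes came from the platform annotation, which gives 34885 probes 1 symbol, 18 several (left unnamed) and 10378 none here. RefSeq GRCm38.p6 was used for promoters only. The members and all gene lists were chosen with earlier results of these data known, so no list was tested as a set. Every member with a kept probe is described in all samples. Of another list, up to 6 genes with the largest mean level were to be named, but not every list has its brightest genes named. Cell type markers listed for the sort are also named (such as Krt5, Ptprc and Pecam1). Exceptions named after their values were seen are marked. Some genes detected in no sample, such as Pax7 and Myh6, are named outside this rule. The lists covered other skeletal fibre genes, embryonic and slow myosins, satellite cell, cardiac, smooth muscle, adipocyte, endothelial, blood cell, red cell, Schwann cell and fibroblast genes, and general counterparts.

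Pool numbers in the labels pair the fractions. Deviations from the group means correlated at 0.367 in the control and 0.135 in the ovx pools, and at 0.587 (MaSC-enriched) and 0.279 (luminal) for samples with the same number from different pools. The pairing therefore rests on the labels. Alternatives were the offset, no background correction, the authors' table, the filter, the beadchip, second arrays, blocks and leaving out samples; counts without control MaSC-enriched replicate 1 were added after the data were seen.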

Additional observations from a re-analysis of the deposited data

Results flagged for a closer look

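For 3 probes of 2 member genes, both ovx samples lay below both controls in MaSC-enriched cells and above both in luminal cells, and the difference between the fractions was not tested. The share of all kept probes that separated in such opposite ways was not counted, so nothing is read from that number. The Ryr1 probe that stands for the gene had an ovx minus control difference of -0.82 in MaSC-enriched and 1.78 in luminal cells. A second Ryr1 probe read -0.66 and 2.26. Of the MaSC-enriched samples both Ryr1 probes were detected in control replicate 2 alone, so the lower side rests on that sample. A second probe of Myl1, detected in the ovx luminal samples alone, read -0.18 and 1.50. It was detected on none of the MaSC-enriched arrays, so its value there gives no direction. The Myl1 probe with the highest mean read 0.090 in MaSC-enriched cells, where its groups overlapped.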

How the results depend on the processing

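With 2 pools per group, only large differences can pass the test, and dim probes were hardest to detect in control MaSC-enriched replicate 1. In MaSC-enriched cells 0 member probes were called under every alternative run, with the median over all member probes between -0.033 and 0.075 when a sample was left out. The luminal count of called member probes, 5, became 3 with no background correction, 2 with no filter, 0 with detection in at least 4 samples, 0 within beadchip 1, 0 within beadchip 2, 14 with the beadchip as a block and RNA as a random block, and 1 without the control replicate 2 pool. It ran from 0 to 10 when single samples were left out: 10 without either control MaSC-enriched sample and 0 without any other. The tested probes, residual degrees of freedom or estimated spread differ between these fits. Luminal calls over all probes are not given here for every setting, so nothing about the members is read from these counts. The luminal median over all member probes ran from 0.19 to 0.38 without single samples and was highest without ovx replicate 1. Over the 26 genes it was 2.03 with an offset of 50, 2.03 with the authors' deposited table and 1.55 with no background correction. The luminal Mb difference of 0.19 reversed to -0.36 within beadchip 1, -0.023 without control replicate 2, -0.023 without both samples of that control pool and -0.10 without ovx replicate 2 (0.49 without ovx replicate 1), and the MaSC-enriched Ckm difference of 0.45 to -0.20 within beadchip 2; the cause was not tested. At a detection p under 0.01, 6 in place of 11 member probes were detected in control MaSC-enriched replicate 1, and 10 in place of 17 in replicate 2.

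Over all probes, 16 calls in MaSC-enriched cells became 26 with no filter, 1 with detection in at least 4 samples, 0 within each beadchip, 81 with the beadchip block and 0 to 583 without single samples. The 33 luminal calls became 11 with detection in at least 4 samples, 0 and 1 within the beadchips, 137 with the beadchip block and 0 to 82 without single samples. The replicate number as a block gave 0 called member probes, a median of 0.033 over all member probes and 36 calls in MaSC-enriched cells, and 6, 0.24 and 52 in luminal cells. The pool as a block gave medians of 0.039 in control and -0.22 in ovx mice for MaSC-enriched minus luminal cells. Each pool gave both fractions and each group held both replicate numbers. These blocks therefore leave the differences unchanged by design, and the equal medians are no check of direction.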

Other observations

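Some further genes are given as values, named after those values were seen, and none of the first 3 passed the adjusted limma test. In MaSC-enriched cells Jph2, a junctophilin, differed between ovx and control by 1.75 (adjusted p = 0.123), Casq2, the cardiac calsequestrin, by 1.45 (adjusted p = 0.403) and Pln, an inhibitor of the calcium pump, by 1.95 (adjusted p = 0.113). Pln was detected in the ovx MaSC-enriched samples alone, at 7.54 and 7.24. Jph1 and Srl, other calcium handling genes of the fibre lists, differed by 0.23 and -0.59. Of the 4 cardiac list genes with a kept probe, 3 had both ovx MaSC-enriched samples above both controls, against 19.8% of all kept probes, and 0 separated in luminal cells. In MaSC-enriched cells 7 of the 11 smooth muscle and myoepithelial genes separated upward, with a median of 0.70 and 0 called, and 3 were higher at an unadjusted p under 0.05, where 5.8% of all kept probes passed. Without control MaSC-enriched replicate 1, 9 of the 11 separated upward against 38.4%, and 4 of the 4 cardiac genes.

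Myog, a myogenic regulator, was detected in both control MaSC-enriched samples, at 8.38 and 5.92, and in ovx MaSC-enriched replicate 1, at 6.89, while Myod1 was detected in no sample. Myl4, the embryonic and atrial light chain, read 9.90 and 9.64 in control and 8.69 and 8.70 in ovx MaSC-enriched cells, a difference of -1.08 (limma, adjusted p = 0.518). In luminal cells Myl4 differed by -0.20. Of the remaining lists in luminal cells, 1 of 6 blood cell genes, 1 of 3 Schwann cell genes, 1 of 3 red cell genes and 2 of 7 adipocyte genes separated upward, while 1, 1 and 2 genes of the last 3 lists separated downward. Over all kept probes 26.9% separated upward and 24.7% downward, so nothing is read from these small counts. In MaSC-enriched cells 1 adipocyte gene was called, Lep, which encodes leptin, at 4.77.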
